A study of Mus musculus with 5 samples.

Results

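Ifitm1, Ifitm2, Ifitm3 and Ifitm6 are the members of the interferon-induced transmembrane protein family that bone marrow cells of these mice expressed at appreciable levels, and they are described here across cell types, neutrophil stages and days. They were chosen by name, as 4 of the 28692 genes in the count matrices, and all 4 were found. In the 32135 barcodes kept, those with at least 500 unique molecular identifiers (UMIs), Ifitm3 gave 240855 UMIs, Ifitm6 209886, Ifitm2 123163 and Ifitm1 22849. At least 1 UMI was seen in 79.3% of barcodes for Ifitm3, 73.4% for Ifitm2, 70.3% for Ifitm6 and 21.9% for Ifitm1. The other relatives were close to undetected, with 92 UMIs of Ifitm5, 278 of Ifitm7 and 833 of Ifitm10.

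IFITM proteins are small proteins of the plasma membrane and of endosomes that hinder the fusion of enveloped viruses with the membranes of the cell. Type I and type II interferons raise the transcription of several members through response elements in their promoters, and some cells hold them at a high level without infection. Neutrophils mature in the marrow from dividing precursors, through immature cells that fill their secondary granules, to late cells ready to leave for the blood.

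Droplet-based single-cell RNA sequencing was applied to marrow of C57BL/6J mice aged 8 weeks, each given 1000 BCR-ABL1+ pre-B acute lymphoblastic leukaemia cells through the tail vein without irradiation. The 5 libraries were 1 mouse taken at once after transplantation (day 0) and 1 mouse each on days 3, 6, 9 and 12. The day 0 mouse had also received leukaemia cells, so no library came from an untouched mouse. Flushed marrow was pooled with cells released from the bone by collagenase, red cells were lysed and the cells were frozen before use. With 1 mouse per day a day cannot be told apart from its mouse, its freezing or its library, and no test between days was possible. The intervals given here are exact 95% intervals that cover counting error only.

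The libraries held 33425695 to 43554233 UMIs, and 5474 to 7604 barcodes per library were kept, with medians of 2874 to 3786 UMIs. Pairs of libraries shared 44 to 73 barcode sequences, and 574 of 31551 distinct sequences (1.82%) occurred in more than 1 library. Clusters of barcodes, built without the Ifitm genes, were named from marker lists. Of all barcodes 17395 were neutrophil-like, and 2962 stayed in clusters without a name.

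The genes lie together on chromosome 7 (GRCm38). Ifitm2 spans chr7:140954837-140955987 on the minus strand, Ifitm1 chr7:140967221-140969825 on the plus strand, Ifitm3 chr7:141009586-141010770 and Ifitm6 chr7:141015699-141017924, both on the minus strand. The stretches below are 30 bases each, given because the members differ in the interferon response elements of the windows searched. The windows are RefSeq promoters of GRCm38.p6 (250 bases before to 50 after the RefSeq start, which is base 1 and need not be the outermost start of the gene). For Ifitm1 and Ifitm6 the window lies inside the gene span given above, so the outermost start was not searched. For Ifitm2 and Ifitm3 the window includes it. The stretches are written 5′ to 3′ on the strand of the gene. Capitals mark each match to the core of the interferon-stimulated response element (ISRE), which is GAAA, any 2 bases and GAAA again.
Ifitm1, chr7:140968046-140968075, bases -30 to -1: ctaatggtaacttgaaaccactatttgccc
Ifitm2, chr7:140955988-140956017, bases -56 to -27: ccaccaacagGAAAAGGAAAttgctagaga
Ifitm3, chr7:141010715-141010744, bases 1 to 30: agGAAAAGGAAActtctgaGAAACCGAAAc
Ifitm6, chr7:141016893-141016922, bases -30 to -1: actccaccacccatatgaacttccttgaaa

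Over both strands of the whole windows, Ifitm3 held 2 ISRE cores, at bases 3 to 12 and 20 to 29, and both went on to the longer form, the core followed by CT. Ifitm2 held 1 core, at bases -46 to -37. Among 32851 promoter windows, 3.44% held the core and 0.271% the longer form. The gamma-activated sequence TTCNNNGAA, which interferon gamma signalling uses, was present in 8.30% of windows and was found at bases 14 to 22 of Ifitm3, where it overlaps the second ISRE core, and at bases -10 to -2 of Ifitm6. Ifitm1 had none of these motifs in its window, which does not reach the outermost start of the gene. A match is a match of letters only, and none of these sites was measured here.

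The members differed in which cells held them. Ifitm3 was highest in monocytes and in the dendritic-like class marked by Cd209a, Ifitm6 in immature neutrophils, Ifitm2 in monocytes and late neutrophils, and Ifitm1 in a small basophil or mast-like class, in late neutrophils and in early progenitors. Levels are UMIs of the gene per 10000 UMIs of the class, which is a count of 3′ ends that is not divided by transcript length.

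**Figure D1:**
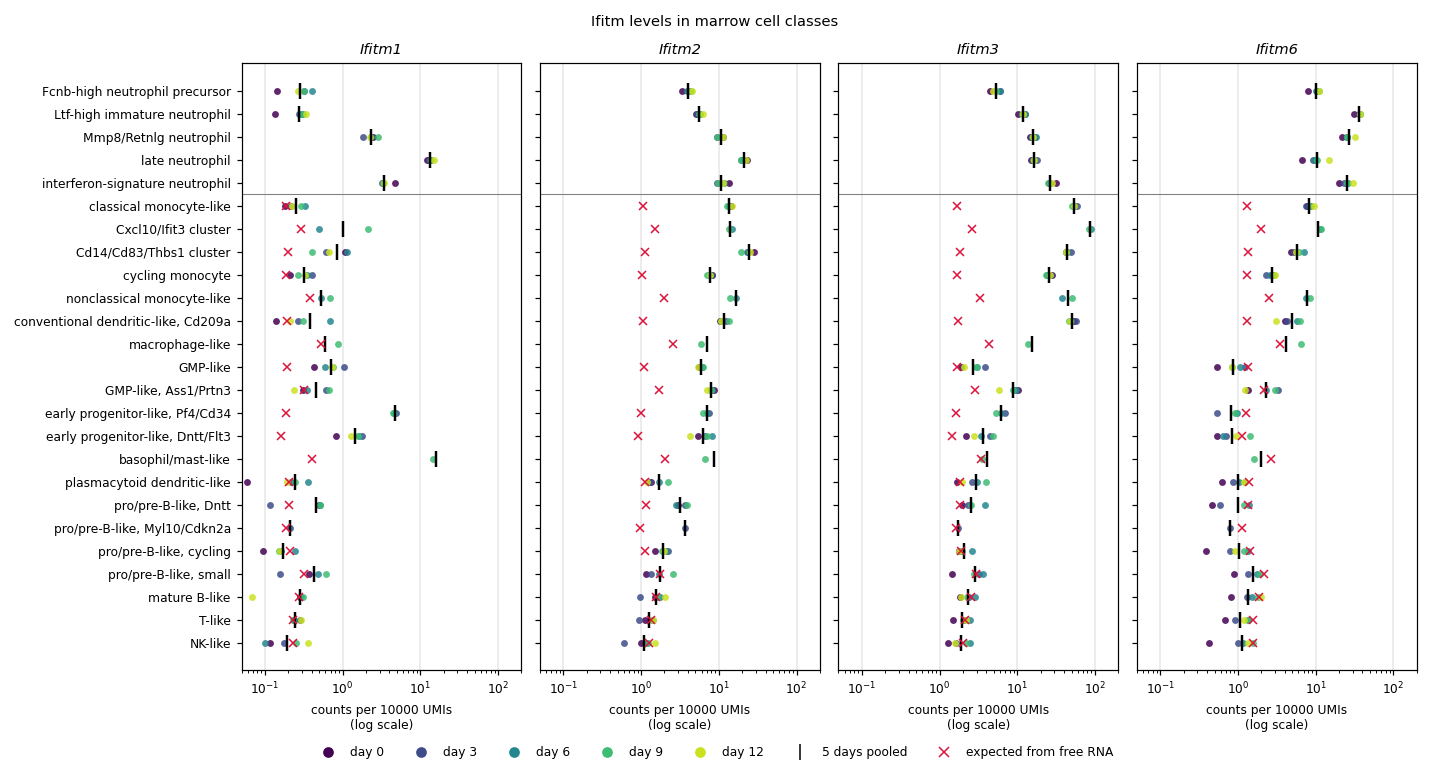
Levels of the 4 genes in each cell class, in UMIs per 10000 on a log axis. Points are single libraries with at least 20 barcodes of the class, vertical marks are values pooled over the 5 days, and crosses are the levels estimated from free RNA outside neutrophils. Ifitm3 is highest in the monocyte classes other than cycling monocytes and in the Cd209a dendritic-like class. Ifitm6 is highest in Ltf-high, Mmp8/Retnlg and interferon-signature neutrophils, and Ifitm1 in late neutrophils, basophil or mast-like cells and Pf4/Cd34 early progenitors. T-like, NK-like and mature B-like cells are low for every member.

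T-like cells, NK-like cells, mature B-like cells and small pre-B-like cells set the floor. Free RNA released by other cells enters every droplet, and its part in each class was estimated from barcodes with at most 100 UMIs and the neutrophil granule genes Ltf, Retnlg and Lcn2. Observed UMIs in these 4 lymphoid classes were 0.856 to 1.37 times those estimated from free RNA for Ifitm1, 0.878 to 1.01 times for Ifitm2, 0.922 to 0.972 times for Ifitm3 and 0.674 to 0.730 times for Ifitm6. Their levels were therefore read as background and not as expression: 0.19 to 0.43 UMIs per 10000 for Ifitm1, 1.10 to 1.74 for Ifitm2, 1.88 to 2.84 for Ifitm3 and 1.06 to 1.55 for Ifitm6. Of the 22 classes outside the neutrophils with at least 50 barcodes, the interval of this ratio lay above 1.5 in 8 classes for Ifitm1, 15 for Ifitm2, 12 for Ifitm3 and 6 for Ifitm6.

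Ifitm3, the endosomal member best known for blocking influenza virus, had its highest level in a small monocyte-lineage cluster led by the interferon-induced genes Cxcl10 and Ifit3 (88 barcodes), at 85.8 UMIs per 10000. By day the levels there were 76.7, 82.8, 88.9, 84.97 and 93.4 on days 0, 3, 6, 9 and 12, from 10 to 29 barcodes each. Classical monocyte-like cells (2111 barcodes) followed at 53.8, with 53.1, 58.0, 53.7, 50.6 and 54.1 over the same days. Every library of the Cxcl10/Ifit3 cluster was above every library of classical monocytes. The classical class joins clusters whose pooled Ifitm3 levels were 35.2, 52.4, 55.0 and 69.7, a wider spread than that over days. The cluster at 69.7 (471 barcodes) carried 3 of 6 interferon-signature markers.

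The next classes overlapped. Conventional dendritic-like cells marked by Cd209a ranged from 46.1 to 56.4 and shared most of their range with classical monocytes. The other dendritic-like classes were far lower, at 5.23 in 34 cells marked by Cst3 and Cxcl9 and 2.98 in plasmacytoid dendritic-like cells, which was 1.62 times the free RNA estimate. The Cd14/Cd83/Thbs1 cluster, which carries activation genes of monocytes, ranged from 42.0 to 48.7. It joins a larger cluster of 579 barcodes, where Ifitm3 was at 52.5, and a smaller one of 145 barcodes with more UMIs per cell, at 26.6, so its level depends on how these are weighted. Nonclassical monocyte-like cells stood at 45.1 pooled, with only 2 libraries of at least 20 cells, at 37.7 and 50.6. Cycling monocytes ranged from 23.4 to 27.9 and overlapped interferon-signature neutrophils (24.7 to 31.2). With each cell thinned to 1000 UMIs, Ifitm3 was detected in 98.1% of classical monocytes and in 18.1% of T-like cells, the background.

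Monocyte subsets differed from each other in all 4 members. As a share of UMIs, cycling monocytes were lower than classical monocytes in Ifitm2 (log2 difference -0.83), Ifitm3 (-1.09) and Ifitm6 (-1.62). All passed 1.5-fold, in a comparison where 12.3% of genes passed that fold downwards. Cycling monocytes had a median of 11275 UMIs per barcode against 5943, so a lower share need not mean fewer UMIs per cell. The Cxcl10/Ifit3 cluster was higher than classical monocytes in Ifitm3 by 0.67 and in Ifitm1 by 2.03, where 12.0% of genes passed upwards, while Ifitm2 differed by 0.02 and Ifitm6 by 0.38. The Ifitm1 difference is between 1.02 and 0.25 UMIs per 10000 and rests on 53 UMIs, of which 28 came from day 9. Without day 9 the level was 0.65 and the log2 difference 1.42, while that of Ifitm3 was 0.65. The Cd14/Cd83/Thbs1 class was higher than classical monocytes in Ifitm1 by 1.74 (0.84 against 0.25) and in Ifitm2 by 0.83 (24.4 against 13.7), where 14.2% of genes passed upwards. Its larger cluster alone gave 2.06 for Ifitm1, 1.05 for Ifitm2 and -0.04 for Ifitm3.

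Ifitm6 had another order. Its highest level was in Ltf-high immature neutrophils at 35.7 UMIs per 10000, and classical monocytes held 8.31 against 22.2 in neutrophil-like cells as a whole, a log2 difference of -1.42. Ifitm3 was the opposite, with 11.2 in all neutrophils against 53.8 in classical monocytes (log2 difference 2.26). Between these classes 77.9% of genes passed 1.5-fold in either direction, so passing it says little by itself. In granulocyte-monocyte progenitor-like (GMP-like) cells and early progenitors Ifitm6, at 0.80 to 0.86 per 10000, lay below the free RNA estimate, and in the GMP-like class marked by Ass1 and Prtn3 it was at 2.33, 1.09 times the estimate. Fcnb-high neutrophil precursors, at 10.1, were the least mature class with a clear Ifitm6 level.

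Ifitm1, which acts mostly at the cell surface, reached a high level in few classes. Outside neutrophils the interval of its ratio to the free RNA estimate lay above 1.5 in 8 of 22 classes. Basophil or mast-like cells held 15.9 UMIs per 10000, from 56 barcodes. By day their levels were 17.01, 16.03, 16.7, 14.4 and 37.8, from 3, 10, 14, 25 and 4 barcodes, and every library was above background. Late neutrophils held 13.5, and the early progenitor-like class marked by Pf4 and Cd34 held 4.69 (4.15, 4.92, 4.53, 4.5 and 5.48 by day). After thinning, Ifitm1 was detected in 61.8% of basophil or mast-like cells, 44.1% of late neutrophils, 35.0% of the Pf4/Cd34 progenitors and 2.5% of T-like cells.

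Progenitor classes differed in Ifitm1. The Pf4/Cd34 progenitors were at 4.69, progenitors marked by Dntt and Flt3 at 1.43, and GMP-like cells at 0.70. The ranges of the first and the last of these did not overlap over libraries with at least 20 cells (4.5 to 4.92 against 0.43 to 1.05), while the Dntt/Flt3 class (0.82 to 1.76) overlapped the GMP-like class. Pf4/Cd34 progenitors were higher than GMP-like cells in Ifitm1 by 2.75 on the log2 scale and in Ifitm3 by 1.19, where 23.5% of genes passed 1.5-fold upwards. Basophil or mast-like cells were higher than GMP-like cells in Ifitm1 by 4.51, where 21.1% passed upwards. Ifitm3 separated the GMP-like classes, at 5.89 to 10.2 over libraries in the Ass1/Prtn3 class and 1.91 to 3.87 in the other.

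Ifitm2, a relative of Ifitm3 of endosomal membranes, was above 1.5 times the free RNA estimate in more of the larger classes outside neutrophils (15 of 22) than any other member, although more barcodes held a UMI of Ifitm3. It was highest in the Cd14/Cd83/Thbs1 cluster (28.6, 23.1, 23.6, 19.4 and 25.1 by day) and in late neutrophils (23.2, 20.5, 19.3, 19.4 and 22.6), whose ranges overlapped. It also stayed above background in some B-lineage precursors. Pro/pre-B-like cells marked by Dntt held 3.21 UMIs per 10000, 2.78 times the free RNA estimate, and were 1.04 higher than mature B-like cells (1.56) on the log2 scale, where 26.8% of genes passed 1.5-fold upwards. In those cells Ifitm1 was at 2.23 times the estimate with 0.45 UMIs per 10000, Ifitm3 at 1.38 times and Ifitm6 at 0.746 times. A pro/pre-B-like class marked by Myl10 and Cdkn2a, of which 153 of 161 barcodes came from day 3, held 3.64 of Ifitm2, 3.80 times the estimate, while the other members there lay between 0.702 and 1.15 times the estimate.

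The share of each member among the family's UMIs therefore changed with the class. Ifitm6 made up 67.0% of the family's UMIs in Ltf-high immature neutrophils, Ifitm3 70.8% in classical monocytes and 76.9% in the Cxcl10/Ifit3 cluster, Ifitm2 58.2% in GMP-like cells and Ifitm1 51.9% in basophil or mast-like cells. Late neutrophils held no member above 34.5%, with 22.0% Ifitm1, 34.5% Ifitm2, 26.7% Ifitm3 and 16.8% Ifitm6. The family's summed level was 53.3 per 10000 in Ltf-high neutrophils, 61.1 in late neutrophils, 76.1 in classical monocytes, 111.5 in the Cxcl10/Ifit3 cluster and 10.1 in GMP-like cells.

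**Figure D2:**
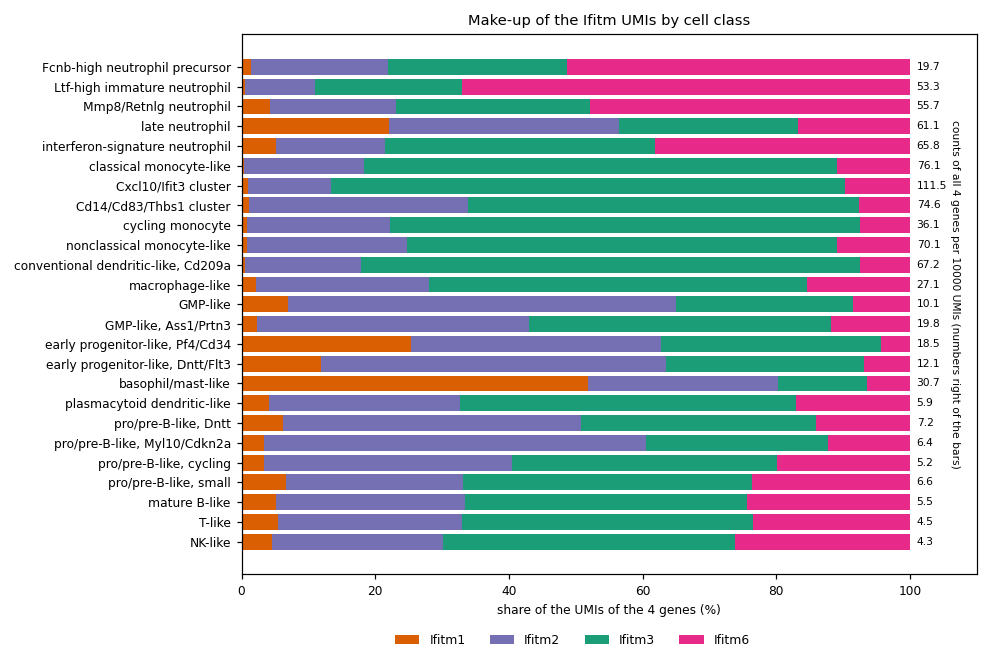
Share of each gene in the summed UMIs of the 4 genes, in percent, for each class. Ifitm6 takes 67.0% in Ltf-high immature neutrophils, Ifitm3 70.8% in classical monocytes and Ifitm1 51.9% in basophil or mast-like cells. In T-like, NK-like and mature B-like cells the make-up is that of levels at the free RNA estimate.

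Within neutrophils the members changed in opposite directions with stage. Ifitm1 and Ifitm2 were highest in late cells, Ifitm6 rose into the Ltf-high stage and then fell, and Ifitm3 changed least after that stage. The stages were Fcnb-high precursors (2444 barcodes), Ltf-high immature cells (5525), cells high in Mmp8 and Retnlg (4279) and late cells (4089), with a separate interferon-signature cluster (758). From precursors to late cells the median UMIs per barcode were 10926, 4691, 2870 and 1908. Levels are shares of a total that was smaller at each stage, so a higher level need not mean more UMIs per cell.

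Ifitm1 was at 0.28, 0.27, 2.35 and 13.5 UMIs per 10000 in that order of stages. Late cells held 12.3, 13.3, 13.2, 13.7 and 14.8 by day, and Ltf-high cells 0.14, 0.27, 0.30, 0.31 and 0.34. Late cells were above Ltf-high cells in every library. The log2 difference was 5.63 (5.52 to 5.74), from 5.44 to 6.50 by day, and 0.219% of the 8668 genes compared had a difference at least as large. In that comparison 28.8% of genes were more than 1.5-fold higher and 17.4% more than 1.5-fold lower. The Ltf-high level of Ifitm1 was 1.44 to 2.03 times a free RNA estimate based on B cell transcripts (Cd74, Igkc and Cd79a), so the base of this fold is close to background. It was 4.26 with stages from a separate clustering of neutrophils and 7.01 after subtraction of free RNA.

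As a share of UMIs, Ifitm2 was at 4.03, 5.57, 10.6 and 21.1 over the stages and was higher at each step. The late level was 1.92 (1.89 to 1.95) above the Ltf-high level on the log2 scale, from 1.76 to 2.21 by day. Ifitm3 was at 5.31, 11.8, 16.1 and 16.3. Its late level was 0.47 (0.44 to 0.50) above the Ltf-high level, under 1.5-fold. Its late and Mmp8/Retnlg levels differed by 0.02 on the log2 scale, and their ranges over libraries overlapped (15.2 to 17.7 and 14.7 to 17.4). Its rise from Fcnb-high to Ltf-high cells, 1.15, passed 1.5-fold, as 9.97% of genes did upwards.

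Ifitm6 was at 10.1, 35.7, 26.7 and 10.3. The rise from Fcnb-high to Ltf-high cells was 1.82 on the log2 scale, and the fall from Mmp8/Retnlg to late cells was -1.38, in a step where 5.78% of genes fell past 1.5-fold. The log2 difference of late from Ltf-high cells was, by day, -2.22, -1.94, -1.96, -1.83 and -1.32, and the difference was smallest on day 12. After thinning, Ifitm6 was detected in 93.8% of Ltf-high cells, 48.5% of late cells and 10.3% of T-like cells.

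**Figure D3:**
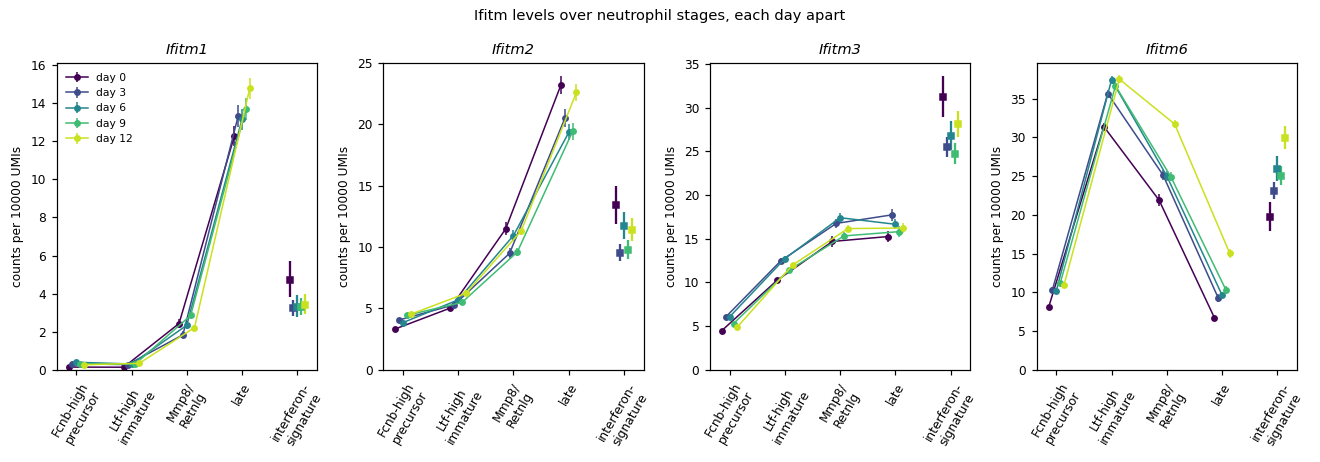
Levels of the 4 genes over the neutrophil stages, in UMIs per 10000, with 1 line per library, exact 95% Poisson intervals as bars, and the interferon-signature cluster as separate squares. Ifitm1 and Ifitm2 are highest in late cells in every library, Ifitm6 peaks in Ltf-high cells, and Ifitm3 is close in Mmp8/Retnlg and late cells.

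Interferon-signature neutrophils, compared with the Mmp8/Retnlg stage, were higher in Ifitm3 by 0.72 on the log2 scale, while Ifitm1 (0.55), Ifitm2 (0.02) and Ifitm6 (-0.09) stayed within 1.5-fold. Upwards, 6.21% of genes passed 1.5-fold there. Against late cells, Ifitm1 in this cluster was lower by a log2 difference of -1.97 and Ifitm3 higher by 0.70. Ifitm3 by day was 31.2, 25.5, 26.8, 24.7 and 28.1, above every Mmp8/Retnlg library. On day 0 this cluster had 71 barcodes, and the B cell transcripts put free RNA at 27.3% of their UMIs, against 8.06% to 11.02% on the other days. In the other stages of the same day 0 library the estimate was 5.64% to 8.98%. Whether the 27.3% is free RNA or B cell transcripts of another source was not tested.

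Other interferon-stimulated genes were set beside the family. Of a list of 32, 27 had enough counts in this comparison and all 27 were more than 1.5-fold higher in interferon-signature neutrophils, where 6.21% of all genes were, with a median log2 difference of 2.02 against 0.02 over all genes, but such genes are what defines the cluster. Bst2, which tethers budding viruses, was at 0.76 against 0.27. In the Cxcl10/Ifit3 cluster 30 of 31 were higher than in classical monocytes, where 12% of all genes were, with a median of 2.91 against -0.20. Ifitm3 was less raised in these clusters (0.72 and 0.67) than the list's medians. Genes of the list lead both clusters and took part in forming them, while the Ifitm genes were left out of clustering. The contrast with the medians therefore cannot rank Ifitm3 against the list.

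The same list was also higher in late than in Ltf-high neutrophils, in 20 of 27 genes where 28.8% of all genes were higher, with a median of 1.43 against 0.15 over all genes. Ifi27l2a, a small mitochondrial membrane protein induced by interferon, was at 8.65 against 0.98. Of 12 interferon receptors and signalling genes, 10 were higher in late cells, against the same 28.8% of all genes, among them the interferon gamma receptor chains Ifngr1 (1.15 on the log2 scale) and Ifngr2 (1.66), the type I receptor chain Ifnar2 (0.93) and the kinase Jak1 (1.33). In interferon-signature neutrophils 4 of these 12 were higher than in the Mmp8/Retnlg stage, against 6.21% of all genes.

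Genes of proteins that act on or bind IFITM proteins were also compared. Of 6 measured partners, 2 were higher and 3 lower in late than in Ltf-high cells, where 28.8% of all genes were higher and 17.4% lower, so the share that was higher is near that of all genes. Zdhhc20, an enzyme that palmitoylates Ifitm3, was higher at 0.45 against 0.20. Zmpste24, a protease that acts with IFITM proteins, was at 0.098 against 1.16, a log2 difference of -3.56, and the tetraspanin Cd81 at 0.17 against 0.92. Vapa, an endosomal and reticulum membrane tether bound by IFITM proteins, differed by 0.30 and did not pass 1.5-fold.

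The comparison of days asked how the members moved while leukaemia cells were present. Over all neutrophil-like cells none of the 4 passed 1.5-fold between day 0 and day 12. The log2 differences were 0.34 for Ifitm1, 0.27 for Ifitm2, 0.33 for Ifitm3 and 0.50 for Ifitm6, and 10.6% of the 8753 genes compared passed the fold in either direction. Ifitm6 passed it, at 0.64, when each cell was thinned to 1000 UMIs or given equal weight. The stages took different shares of the neutrophils on these days. Mmp8/Retnlg cells made up 16.6% on day 0 and 31.6% on day 12, and late cells 29.2% and 21.1%.

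Within stages, Ifitm6 in late neutrophils differed most between days among members and stages with at least 1 UMI per 10000. Its levels were 6.72, 9.26, 9.62, 10.3 and 15.01 UMIs per 10000 on days 0, 3, 6, 9 and 12. Day 0 was the lowest and day 12 the highest, and the libraries between differed little. Day 12 was 2.23-fold above day 0, a log2 difference of 1.16 (1.06 to 1.26), and 0.251% of the 3587 genes compared had a difference at least as large, where 4.88% passed 1.5-fold upwards.

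Ifitm6 was also lowest on day 0 in the other stages. Mmp8/Retnlg cells held 21.9, 25.1, 24.99, 24.9 and 31.7, and interferon-signature cells 19.7, 23.1, 25.9, 25.01 and 29.95, both highest on day 12. Ltf-high cells held 31.4, 35.7, 37.4, 36.6 and 37.5, and Fcnb-high cells 8.05, 10.4, 10.2, 11.2 and 10.98, with days 3 to 12 close together in both. Free RNA itself held 9.71, 14.1, 14.1, 14.7 and 19.8 UMIs of Ifitm6 per 10000 over the days. In late cells the B cell transcripts put Ifitm6 from free RNA at 0.87, 1.55, 2.12, 1.98 and 2.05 UMIs per 10000. With free RNA subtracted by these transcripts, late cells held 6.43 on day 0 and 14.5 on day 12, a fold of 2.25. The part of free RNA in the Ifitm6 differences between days in the other stages, each taken singly, was not tested.

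Other neutrophil genes moved in late cells over the same days. S100a8, a calcium-binding alarmin, was at 1933, 1801, 1736, 1811 and 2256 per 10000, and Retnlg at 426, 392, 347, 400 and 504, both highest on day 12. The immature granule gene Ltf was at 3.09, 6.15, 5.60, 6.04 and 4.59, lowest on day 0, and Mmp8 at 7.77, 10.6, 11.2, 10.3 and 9.30. Cxcr2, a chemokine receptor of mature neutrophils, was at 4.95, 5.92, 5.53, 5.11 and 4.26. The part of cell maturity within the late cluster in the Ifitm6 difference was not tested.

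Over the 5 stages and the 4 later days, each set against day 0, Ifitm2 and Ifitm3 passed 1.5-fold in none of 20 differences each. Ifitm6 passed it upwards in 3, in late cells on days 9 and 12 and in interferon-signature cells on day 12. The interferon-signature levels were 29.95 on day 12 and 19.7 on day 0. The day 0 value came from 71 barcodes with free RNA put at 27.3% of their UMIs. Ifitm1 passed 1.5-fold upwards in 8, all in Fcnb-high and Ltf-high cells. Its levels there were 0.14 to 0.40 UMIs per 10000, at 1.44 to 2.34 times the free RNA estimate. The interval of that ratio lay above 1 in all 10 libraries of these stages, and above 1.5 in 3 of 5 for Fcnb-high and 1 of 5 for Ltf-high cells. The part of free RNA in these Ifitm1 differences was not tested. Over days 3, 6, 9 and 12, the share of all genes that passed upwards was 15.5%, 23.9%, 24% and 7.14% in Fcnb-high cells and 10.8%, 16.9%, 18.9% and 9.04% in Ltf-high cells. It was 8.6%, 11.7%, 17.3% and 8.99% in Mmp8/Retnlg cells, 10.9%, 7.39%, 12.4% and 7.04% in interferon-signature cells and 8.3%, 10.6%, 10.8% and 4.88% in late cells.

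**Figure D4:**
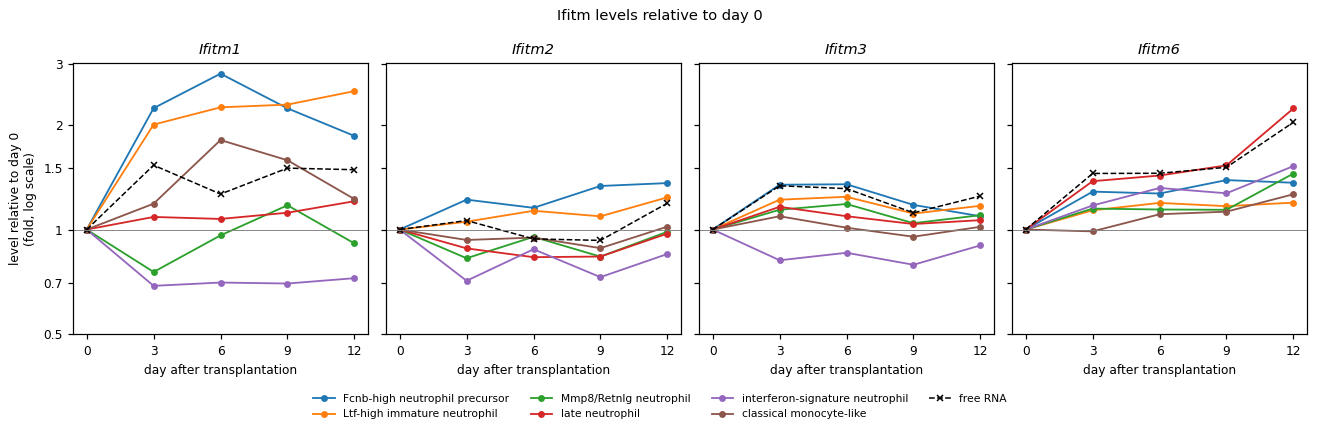
Level of each gene relative to its own day 0 level, as a fold on a log axis, against the day after transplantation, for 5 neutrophil stages, classical monocytes and free RNA (dashed line). Each point is 1 mouse. Ifitm6 of late neutrophils reaches 2.23-fold on day 12 (2.25-fold with free RNA subtracted, not drawn). Free RNA went from 9.71 to 19.8 UMIs of Ifitm6 per 10000. Ifitm2 and Ifitm3 stay within 1.5-fold of day 0 in every stage shown. The raised Ifitm1 lines of Fcnb-high and Ltf-high cells rest on levels of 0.14 to 0.40 UMIs per 10000.

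In classical monocytes Ifitm6 was at 7.63, 7.54, 8.45, 8.60 and 9.65 by day, and Ifitm2 at 14.4, 13.4, 13.6, 12.7 and 14.7. A cluster led by Atf3 and Ccl2 made up 256 of the 523 classical monocytes on day 0 and 85 of 373 on day 12, but 2, 1 and 5 on days 3, 6 and 9. Without it Ifitm6 was at 6.97, 7.54, 8.45, 8.57 and 9.2. The other interferon-stimulated genes moved little there between days 0 and 12, with 3 of 27 higher, where 6.43% of all genes were, and a median log2 difference of 0.31 against 0.04 over all genes. In late neutrophils 1 of 17 was higher, where 4.88% of all genes were, with a median of 0.06 against -0.05. In interferon-signature neutrophils 11 of 17 were lower on day 12, where 13.6% of all genes were, with a median of -0.61 against -0.10. The day 0 barcodes of this cluster were those with the high estimate from B cell transcripts. Outside neutrophils, the ratio of Ifitm6 levels to day 0 ran from 0.748 to 4.05 over 47 differences in 14 classes, many of them at the free RNA estimate, and the free RNA held more Ifitm6 on the later days.

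Genes with patterns like each member were found by correlation of log2 levels over 28 classes among 3145 genes. The classes share the same 5 libraries and their free RNA, so these values describe and do not test. Among the genes most like Ifitm1 were Igf1r (r = 0.880), a growth factor receptor, and Hdc (0.793), which makes histamine. Ifitm2 was closest to Tnfrsf1a (0.868), a receptor of tumour necrosis factor, Orai1 (0.866), a calcium channel, and Alox5ap (0.862), which serves leukotriene synthesis. Ifitm3 was closest to Lgals3 (0.921), galectin 3, and Ap1s2 (0.919), of a vesicle coat, apart from the pseudogene Gm7676. Ifitm6 was closest to Itgam (0.961), the integrin chain CD11b, Pirb (0.934), an inhibitory receptor, and Mcemp1 (0.934).

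Between members, Ifitm2 and Ifitm3 were most alike (0.841), followed by Ifitm3 and Ifitm6 (0.680) and Ifitm2 and Ifitm6 (0.603). Ifitm1 was least like the rest, at 0.50 with Ifitm2, 0.250 with Ifitm6 and 0.142 with Ifitm3. The transcripts of Ifitm2 and Ifitm3 were 73.2% identical. They shared an exact stretch of at most 69 bases, the longest between any pair of members. A read that lies within such a stretch does not tell these genes apart, and how such reads were counted was not tested. Ifitm2 also lies under the predicted gene Gm45717 on the same strand, which is not in the gene list of the matrices.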

How the data were processed

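Single-cell 3′ RNA libraries of 5 mice were processed by the authors with Cell Ranger against mm10, and the deposited matrices hold raw UMI counts for all barcodes, with no cell filter. No annotation or normalization came with them. Barcodes with at least 500 UMIs were kept (Python 3.11.15, scanpy 1.11.5, leidenalg 0.10.2). Clustering used the 1000 most variable genes of each library that recurred in more than 1 library, without the Ifitm genes. It used 20 components, 20 neighbours and resolution 0.6. The monocyte, progenitor, B, T and NK, and plasmacytoid dendritic groups were then clustered again, the last at a lower resolution. The monocyte-lineage cluster that held the conventional dendritic-like and macrophage-like classes was split once more at a higher resolution. Clusters were named from fixed markers with at least 3 detected. Sub-clustering of neutrophils split immature cells by library, so stages were taken from clusters of all barcodes, which departs from the planned design. Scrublet called 2.32% of barcodes in the day 0 library and at most 0.0341% in the others, so it had not worked, and doublets were left in. Levels are summed counts per 10000 summed UMIs. Log2 differences have conditional binomial intervals and were called past 1.5-fold among genes with at least 50 counts. No p-value was computed, since each day is 1 mouse. Named genes were the 4 members, the most alike genes, and the most abundant members of the fixed lists. Some genes that this rule names are not reported here. Members and lists were chosen with earlier results of these data known. The comparison script was tested on simulated data.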

Additional observations from a re-analysis of the deposited data

Results flagged for a closer look

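Signal of the family appeared in a cluster without a name, which no comparison used. It held 69 barcodes, was led by H2-Eb1, H2-Aa and Cd74, and carried markers of dendritic cells, macrophages and monocytes. Ifitm1 was at 2.06 UMIs per 10000, 7.98 times the free RNA estimate, with 1.2, 2.52, 3.77, 0.52 and 0 by day from 9, 25, 13, 20 and 2 barcodes. Ifitm2 was at 23.3, 17.4 times the estimate, and Ifitm3 at 35.4, 15.8 times the estimate.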

How the results depend on the processing

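Of 64 alternative values for the late against Ltf-high and the day 12 against day 0 differences of the 4 genes, 34 moved by less than their counting interval and 30 moved further. Values are log2 differences in the order Ifitm1, Ifitm2, Ifitm3, Ifitm6 where 4 are given. For late against Ltf-high neutrophils, no direction changed. The mean over cells gave 5.33, 1.96, 0.35 and -2.03, and subtraction of free RNA gave 7.01, 2.15, 0.52 and -1.95. Thinning gave 2.01 for Ifitm2, 0.37 for Ifitm3 and -1.98 for Ifitm6. The other clustering gave 5.51 for Ifitm1 and 1.86 for Ifitm2, and leaving out the top 6% of Scrublet scores gave -1.83 for Ifitm6. Sub-clustered stages, chosen after seeing the data, gave 4.26, 1.45, 0.33 and -1.42. For day 12 against day 0 over all neutrophil-like cells, the mean over cells gave -0.058, -0.055, 0.25 and 0.64, and thinning gave -2.83e-05, -0.041, 0.21 and 0.64, so that Ifitm6 passed 1.5-fold under both and the small differences of Ifitm1 and Ifitm2 changed sign or vanished. Leaving out the top Scrublet scores gave 0.46 for Ifitm6. Weighting the 5 stages equally, chosen after seeing the data, gave 0.10 for Ifitm1, -0.0099 for Ifitm2 and 0.028 for Ifitm3, and the cause was not tested. The late Ifitm6 fold between days 12 and 0 lay between 2.09 and 2.59 under the alternatives run. Leaving out each day in turn from the Cxcl10/Ifit3 comparison and splitting the 2 monocyte classes by cluster were also chosen after seeing the data, and their values stand beside the results. No paired analysis was possible because each day is 1 mouse and the labels number no replicates, and leaving out a replicate was not possible for the same reason. Classes with few barcodes, such as basophil or mast-like cells, have wide intervals by day.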

Other observations

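The processed pseudogene Gm7676, with 5748 UMIs (2.39% of those of Ifitm3), was the gene most like Ifitm3 over the 28 classes (r = 0.939). Its 319-base transcript was 97.5% identical to Ifitm1 and 80.1% identical to Ifitm3, yet it shared exact stretches of like length with both, 80 bases with Ifitm1 and 78 with Ifitm3. Whether its UMIs came from Ifitm3 transcripts was not tested. Conventional dendritic-like cells marked by Cst3 and Cxcl9 (34 barcodes) were lower in Ifitm3 than those marked by Cd209a by 3.26 on the log2 scale.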
